A study of Mus musculus with 11 samples.

Results

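The change from neonatal to adult mouse liver was measured by comparing arrays of livers at post-natal day 56 (P56) with arrays of livers at post-natal day 5 (P5), across all genes that passed a filter on dim probes. The arrays were taken by their titles, which gave 2 P5 arrays (replicates 2 and 3) and 3 P56 arrays (replicates 1, 2 and 3), 5 of the 11 arrays of normal liver development. The other arrays held livers of embryonic days 14 and 18 (E14 and E18), with 3 arrays each, and served here to estimate the spread and to place the changes on the course of development. The study behind the series followed the Wnt and RXR-alpha pathways through liver development and in liver cancer.

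Both stages were untreated whole livers from which total RNA was extracted, and the labels call each array a biological replicate. The labels name no strain, genotype or sex for these livers and give the cell type as hepatocytes, although the tissue taken was the whole organ. Each array carried liver RNA labelled with Cy5 and a common reference labelled with Cy3, RNA bought as that of normal adult liver, and no dyes were swapped. Values are log2(Cy5/Cy3) after normalization within each array, so that 0 is the level in the adult reference, and differences are P56 minus P5 on this log2 scale. Differences carry the standard error (SE) of the fit after ±, with 2 P5 and 3 P56 arrays behind each unless said otherwise. Levels of different probes were not compared.

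The liver changes its work after birth. The fetal liver makes blood cells and grows rapidly, while the adult organ secretes plasma proteins, makes bile acids, stores and synthesizes fuel, and detoxifies foreign compounds. Suckling pups live on fat-rich milk and burn fatty acids, and weaning brings a diet rich in starch, from which the liver makes fat. Growth hormone, whose secretion differs between the sexes from puberty on, sets the level of many genes of the adult liver.

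Of the 16697 genes tested, 7614 passed an adjusted p of 0.05 (limma with Benjamini-Hochberg adjustment), which is 45.6% of all genes tested. At P56, 3483 genes were higher (20.9%) and 4131 were lower (24.7%). Counts of list members given below are to be read beside these shares. The change exceeded 1 on the log2 scale for 957 of the higher and 1312 of the lower genes, and exceeded 3 for 51 and 119. The P5 arrays did not overlap the P56 arrays for 10234 genes (61.3% of those tested). The balance of directions depended on the normalization. With median centring in place of loess, 651 genes were higher and 8863 lower, and the median over all genes was -0.47 in place of -0.02, so changes are to be read relative to those medians. The mean of the P56 arrays lay within 1 log2 unit of the adult reference for 88.4% of genes.

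The arrays differed in ways other than age. Spots well above background in Cy5 numbered 25130 and 24921 on the P5 arrays and 23079, 16790 and 20131 on the P56 arrays, and the median net Cy5 signal was 33.0 and 23.9 on the former and 17.0, 9.54 and 16.2 on the latter, which were thus dimmer. P5 replicate 2 was scanned apart, while P5 replicate 3 and the P56 arrays shared a scan. Without P5 replicate 2 the count of genes called was 4743 in place of 7614. Transcripts of the sex chromosomes differed within the P56 group. Xist, the RNA that silences an X chromosome in females, had values of 4.13 and 2.67 at P5 and -0.06, 4.03 and 5.18 at P56, and on P56 replicate 1 it was not well above background. The best probe of Ddx3y, a Y-linked gene, was well above background on P56 replicate 1 alone of the 5 arrays, and so was Eif2s3y, named after its values were seen. The labels give no sex. For genes said to be highest or lowest on this array, the value on each array or the difference without it is given.

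The reference channel was not constant for the genes that changed most. All arrays carried the same reference, yet the Cy3 signal, on a scale quantile-normalized between arrays, was lower at P56 than at P5 by at least 1 log2 unit for 36 of the 119 genes that fell by 3 or more (30.3%) and for 110 of all genes tested (0.659%). Igf2, a fetal growth factor, is the plainest case: its Cy3 signal net of background was 4907 and 2819 on the P5 arrays and 33.1, 34.1 and 37.9 on the P56 arrays, while its Cy5 signal was 65489 and 63979, near the limit of the scanner, and 41.9, 8.80 and 11.2. Rhd, whose spots were not saturated, had Cy3 signals of 504 and 264 at P5 and of 13.1, 10.9 and 14.0 on the P56 arrays. The same was seen for H19, with 3127 and 1423 against 103, 74.0 and 84.6. For these falls the log2 ratios understate the difference in Cy5, and the Cy3 value at P5 is no measure of the adult reference. Other falls went the opposite way. For 3 of the 119 (2.52%) the Cy3 signal was higher at P56 by at least 1, which enlarges the fall of the ratio. S100a9, the largest fall by log2 ratio, had Cy3 signals of 6823 and 2422 at P5 and of 9189, 11156 and 12422 at P56. The Cy3 signal was also lower at P56 by at least 1 for 7 of the 51 genes that rose by 3 or more (13.7%), and there the ratios overstate the difference in Cy5. Mup3, a major urinary protein, had Cy3 signals of 64154 and 50913 on the P5 arrays and of 9849, 25823 and 21877 on the P56 arrays. The cause was not tested.

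**Figure D1:**
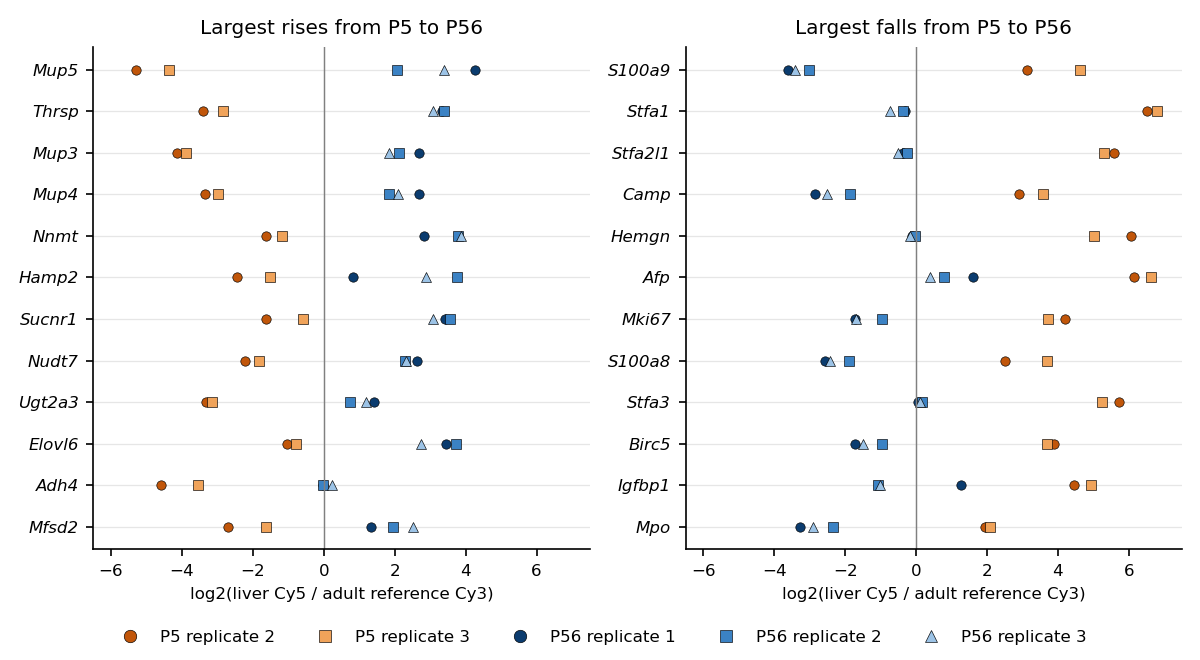
Level of the genes with the largest rises (left) and falls (right) on each array, as log2 of liver over adult reference. Orange marks are the 2 P5 arrays and blue marks the 3 P56 arrays, which do not overlap for any gene shown. The log2 ratios rise by 8.07 (Mup5) to 4.10 (Mfsd2) and change by -7.21 (S100a9) to -4.86 (Mpo) among the falls, an order that saturated and dim spots and the Cy3 channel affect.

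The rises of the largest log2 ratio included 3 genes of major urinary proteins. All 4 genes measured of this family (Mup), which the adult liver secretes in large amounts to carry pheromones into urine, rose, with a median difference of 6.82, or 4.36 in the Cy5 channel alone. The probes of Mup5, Mup4 and Mup3 are shown because these genes are close copies of each other and a probe may also catch its relatives. Positions are those of the array design on build mm7, and the capitals mark AATAAA, the usual signal for adding the poly(A) tail. The interval that the design gives for Mup3 is shorter than its probe of 60 bases.
Mup5, chr4:61268759-61268818, minus strand: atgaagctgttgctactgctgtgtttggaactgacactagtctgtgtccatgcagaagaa
Mup4, chr4:59998341-59998400, minus strand: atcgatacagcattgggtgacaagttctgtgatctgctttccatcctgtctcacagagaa
Mup3, chr4:61517162-61517210, minus strand: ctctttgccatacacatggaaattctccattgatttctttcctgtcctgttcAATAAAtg
Mup5 had values of -5.31 and -4.37 on the P5 arrays and 4.26, 2.06 and 3.38 on the P56 arrays, a difference of 8.07 ± 0.47 (adjusted p = 1.30e-07). The log ratios of Mup4 and Mup3 differed by 5.36 and 6.23, but both were saturated on 2 of the 3 P56 arrays, and in the Cy5 channel alone they differed by 3.74 and 4.42, so the sizes are uncertain. All P56 log ratios stood above 0 and all P5 log ratios far below it for these genes. Mup4, like Mup3, had higher Cy3 signals at P5 (56685 and 42886) than at P56 (9716, 28572 and 18474). For Mup3 and Mup4, a level above the adult reference at P56 is therefore not shown. Mup1, the remaining gene, which the naming rule left out, had no value on P5 replicate 2 and differed by 7.40 ± 0.75 from the other P5 array. Other large rises were those of Hamp2, a gene of the hepcidin family described below, Thrsp, a regulator of lipogenesis (6.39 ± 0.18, adjusted p = 4.74e-10), Nnmt, which methylates nicotinamide (4.88 ± 0.27), Sucnr1, the succinate receptor (4.46 ± 0.24), Nudt7, a peroxisomal hydrolase of coenzyme A (4.43 ± 0.14), and Mfsd2 (now Mfsd2a), a lipid transporter (4.10 ± 0.32). Adh4, an alcohol and retinol dehydrogenase, had values of -4.60 and -3.55 on the P5 arrays and -0.03, -0.02 and 0.23 on the P56 arrays, so it rose to the level of the adult reference.

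Plasma proteins made by hepatocytes were mostly lower at P56 than at P5. Of 24 measured, 3 rose and 13 fell, with a median of -0.69. Albumin itself (Alb1) had values of -0.12 and -0.16 on the P5 arrays and -0.48, -0.66 and -0.41 on the P56 arrays and its difference of -0.37 ± 0.17 did not pass (adjusted p = 0.0923). Its Cy5 signal was saturated on 1 P5 array and its Cy3 signal lay near the limit of the scanner, from 57170 to 65469, so a difference could be hidden. Kng1, the precursor of bradykinin, fell by 2.16 on the log2 scale (adjusted p = 5.91e-06), and Trf, the iron carrier of plasma, by 1.67, with the same limits of signal on 1 P5 array in Cy5 and on the P56 arrays in Cy3. Ahsg, a carrier of mineral in serum, was saturated on both P5 arrays, so its fall has only a bound, at least 1.64-fold in the Cy5 channel. F9, a coagulation factor that haemophilia B patients lack, rose (1.34 ± 0.11, adjusted p = 1.70e-06), as did Ttr, the carrier of thyroid hormone and retinol (0.62 ± 0.12, adjusted p = 0.00126). Under median centring Ttr differed by 3.37e-04 and was not called (adjusted p = 0.999). The bounds given as "at least" here and later compare the Cy5 channel alone after quantile normalization of brightness, and a bias of the dye would not cancel in them.

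Genes of the fetal liver and of liver tumours fell together: 15 of 21 measured, with a median of -2.19. Alpha-fetoprotein (Afp), the fetal counterpart of albumin, was read by this probe, shown because Afp is the textbook marker of this change.
Afp, chr5:90479870-90479929 (mm7), plus strand: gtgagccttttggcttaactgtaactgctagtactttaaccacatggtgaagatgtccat
Afp had values of 6.15 and 6.63 on the P5 arrays and 1.61, 0.78 and 0.39 on the P56 arrays, a difference of -5.46 ± 0.29 (adjusted p = 5.99e-08). It was saturated on both P5 arrays, and the fall was at least 133-fold in the Cy5 channel. All P56 arrays were still above the adult reference for Afp, by 0.39 to 1.61, and P56 replicate 1 was the highest of them. Gpc3, a cell-surface proteoglycan, fell from 5.08 and 4.97 to 0.12, 0.21 and 0.23 (-4.84 ± 0.10, adjusted p = 3.42e-10). Its Cy3 signals fell too, from 571 and 299 at P5 to 45.5, 46.6 and 50.5 at P56. In the Cy5 channel alone Gpc3 differed by -6.91, so the size of its fall is uncertain. The imprinted genes Igf2, H19, its neighbouring non-coding RNA, Mest, and Grb10, an inhibitor of insulin and IGF receptor signalling, fell as well. H19 had values of 3.37 and 3.40 on the P5 arrays and 0.55, -0.07 and 0.13 on the P56 arrays, a difference of -3.18 ± 0.15 (adjusted p = 2.59e-08). Igf2 was saturated on both P5 arrays and well above background on 1 of the 3 P56 arrays, and its log2 difference was -3.85 ± 0.23. In the Cy5 channel alone it fell by at least 540-fold, a gap that goes with the Cy3 values given above. Grb10 was not well above background on any P56 array and fell by at least 38.9-fold (adjusted p = 4.86e-07). Sall4, a stem cell factor, was called higher by 0.44 against the list, but its other probe gave -0.30.

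Proliferation genes fell. Of 44 cell cycle genes measured, 42 were lower at P56, and the median was -2.64 against -0.02 over all genes. It was -2.16 without P5 replicate 2, the array with the higher values. Mki67, the antigen by which dividing cells are stained, had values of 4.19 and 3.72 on the P5 arrays and -1.73, -0.96 and -1.69 on the P56 arrays (difference -5.42 ± 0.21, adjusted p = 7.00e-09), and Birc5, an inhibitor of apoptosis needed for cell division, 3.88 and 3.70 at P5 and -1.71, -0.97 and -1.51 at P56 (difference -5.18 ± 0.17, adjusted p = 2.03e-09). Both fell below the adult reference on every P56 array. Ccna2, the cyclin of S phase, and Cenpe, a kinetochore motor, fell by 4.09 and by 4.03. Each was well above background on only 1 of the 3 P56 arrays, so the sizes are uncertain. In the Cy5 channel alone the differences were -4.87 and -4.72. In a bulk sample, fewer cells of a kind and less RNA per cell cannot be told apart.

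The exception was E2f8, a repressor of cell cycle genes, which was called higher by 3.55 from the brighter of its 2 probes. The probes are shown because they disagreed and because the array design places them on opposite strands of chromosome 7 (mm7).
E2f8, brighter probe, chr7:45107174-45107233, plus strand: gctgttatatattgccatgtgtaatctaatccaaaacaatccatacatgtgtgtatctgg
E2f8, dimmer probe, chr7:45087317-45087376, minus strand: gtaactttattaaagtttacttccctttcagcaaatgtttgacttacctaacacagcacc
The brighter probe had values of -1.70 and -0.68 on the P5 arrays and 1.90, 2.43 and 2.74 on the P56 arrays. The dimmer probe had 2.36 and 1.44 at P5 and 0.09, -0.06 and -0.18 at P56, a difference of -1.95, and was well above background on 1 of the 3 P56 arrays. Which of them reads the E2f8 messenger RNA was not tested, so the direction of E2f8 is uncertain.

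Promoters of the cell cycle genes often held the 2 motifs known for genes of mitosis. RefSeq promoters (assembly GRCm38.p6, from 250 bases before to 50 after the start site) were found for 37 of the 44 genes. The letters TTTGAA, the cell cycle homology region bound by the DREAM and MuvB complexes, stood on either strand in 18 of 39 promoters (46.2%) and in 17.9% of all promoters. CCAAT, the box bound by NF-Y, stood in 29 of 39 (74.4%) and in 37.4% of all. The promoters of Mki67 and Cenpe are shown with these letters, read on either strand, in capitals.
Mki67, chr7:135716330-135716629, minus strand: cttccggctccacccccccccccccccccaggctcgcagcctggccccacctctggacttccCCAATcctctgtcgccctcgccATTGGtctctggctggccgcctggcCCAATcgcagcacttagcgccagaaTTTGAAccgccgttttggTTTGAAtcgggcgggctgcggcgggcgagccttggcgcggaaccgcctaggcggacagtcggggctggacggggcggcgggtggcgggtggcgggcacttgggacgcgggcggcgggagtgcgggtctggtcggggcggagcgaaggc
Cenpe, chr3:135212313-135212612, plus strand: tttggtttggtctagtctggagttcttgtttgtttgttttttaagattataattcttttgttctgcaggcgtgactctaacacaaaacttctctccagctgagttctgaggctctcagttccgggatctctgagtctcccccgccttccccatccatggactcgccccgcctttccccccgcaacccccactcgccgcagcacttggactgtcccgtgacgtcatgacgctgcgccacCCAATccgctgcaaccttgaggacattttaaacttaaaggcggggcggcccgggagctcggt
The Mki67 promoter held 2 copies of TTTGAA and 3 of CCAAT, and that of Cenpe 1 CCAAT and no TTTGAA. The promoter of Birc5 in that table held neither. A match of letters is a description and not a measured binding site.

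Genes of blood-forming cells fell. Of 33 erythroid genes measured, 30 fell and none rose, with a median of -2.71. Of 22 genes of neutrophil granules and myeloid progenitors, 21 fell (median -2.55), and of 18 genes of megakaryocytes and platelets, 13 fell (median -1.17). The medians of these lists were -0.92 or lower under every alternative run. Rhd, a blood group antigen carrier, had values of 4.82 and 4.49 on the P5 arrays and 0.07, 0.04 and -0.12 on the P56 arrays. It was not well above background on any P56 array and fell by at least 138-fold (adjusted p = 3.42e-10). Hemgn, a nuclear protein of blood progenitors, fell by at least 96.9-fold on the same terms, and Slc25a37, which brings iron into mitochondria, by 4.77 on the log2 scale. The adult beta globin Hbb-b1 was saturated on both P5 arrays, had values of 3.32 and 3.95 at P5 and 0.87, 0.39 and 0.35 at P56, and fell by at least 2.45-fold in the Cy5 channel. It remained above the reference on all P56 arrays.

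The GATA box AGATAA stood in 10 of 29 promoters found for the erythroid list (34.5%) and in 11.2% of all promoters, while CCACACCC, the box of KLF1, stood in 1 of 29 (3.45%) against 3.56% of all. The promoter of Hemgn is shown as that of an erythroid gene with a large fall, with AGATAA in capitals, which lies after the start site.
Hemgn, chr4:46404134-46404433, minus strand: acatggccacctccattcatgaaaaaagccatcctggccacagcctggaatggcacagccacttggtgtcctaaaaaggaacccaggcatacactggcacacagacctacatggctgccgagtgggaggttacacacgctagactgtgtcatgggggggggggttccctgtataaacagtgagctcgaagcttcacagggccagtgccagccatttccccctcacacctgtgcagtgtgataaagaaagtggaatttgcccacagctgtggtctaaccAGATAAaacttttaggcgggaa

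S100a9, a calcium-binding protein of neutrophils, had values of 3.12 and 4.62 on the P5 arrays and -3.60, -3.03 and -3.41 on the P56 arrays. It was saturated on both P5 arrays and fell by at least 60.0-fold in the Cy5 channel (adjusted p = 2.33e-08). Its partner S100a8 fell by 5.40 on the log2 scale, Camp, an antimicrobial peptide, by 5.65, and Mpo, the peroxidase of granules, fell by 4.86. For these genes every P56 array lay below the adult reference and every P5 array above it. The stefin A genes, a family of near-identical cysteine protease inhibitors whose probes may catch each other, fell as well. Stfa1 went from 6.52 and 6.80 to values between -0.74 and -0.31, and Stfa2l1 and Stfa3 fell by at least 127-fold and 99.9-fold. Among platelet genes, Cxcl4 (now Pf4) fell by 3.53, Gfi1b, shared with red cell precursors, by at least 20.6-fold, and Cxcl7 (now Ppbp) by 2.85.

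Few lymphocyte genes were called. Of 16 genes of B cell precursors, 4 fell (25%, near the 24.7% of all genes) and 1 rose (6.25%, beside 20.9%). The median was -0.27, or -0.14 without P5 replicate 2. Igh-6, the heavy chain of IgM, fell by 1.61 and Cd79b, a signalling chain of the B cell receptor, by 1.17. Vpreb1, part of the pre-B cell receptor, fell by 1.12, but by 0.42 without P5 replicate 2, where it was no longer called (adjusted p = 0.0875), while Dntt, the terminal transferase of lymphocyte precursors, rose (2.14 ± 0.33, adjusted p = 3.09e-04). Of 17 T and NK cell genes, 3 rose (17.6%, beside 20.9% of all genes) and 1 fell (5.88%, beside 24.7%), or 1 and 6 under median centring. Zap70, a kinase of the T cell receptor, had values of -1.34 and -0.42 on the P5 arrays and 0.88, 1.71 and 2.43 on the P56 arrays (2.55 ± 0.36, adjusted p = 1.57e-04), and Gzma, a protease of killer cells, fell by 2.23. The list had 1 gene higher and 4 lower without P5 replicate 2.

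**Figure D2:**
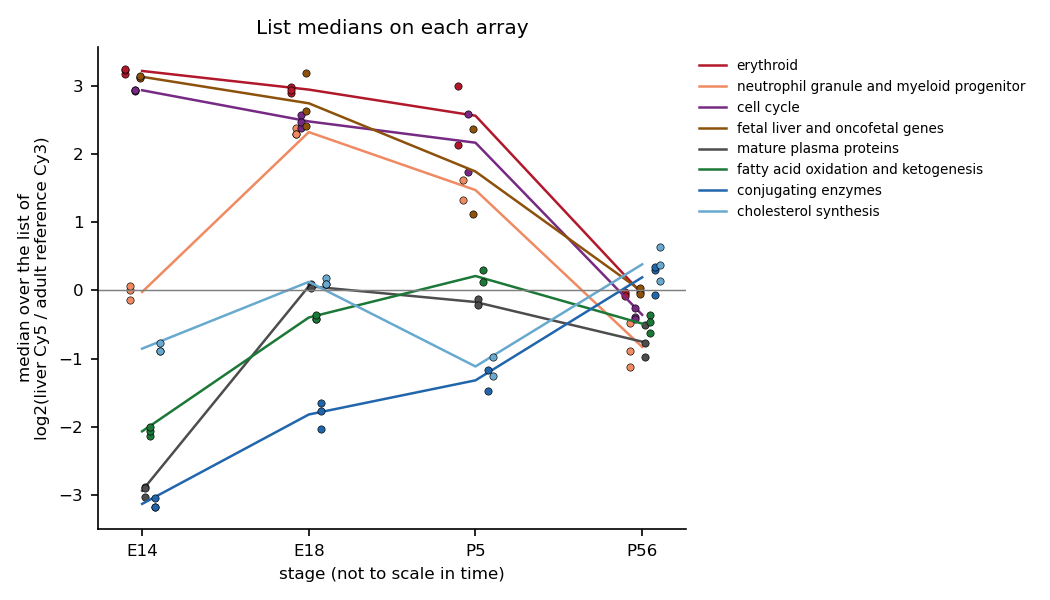
Median over a gene list of log2 liver over adult reference on each of the 11 arrays (points), with the mean of the arrays of a stage as a line. The erythroid, cell cycle and fetal lists lay above the reference through P5 and near or below it at P56, while the cholesterol synthesis list fell from E18 to P5 before it rose.

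Genes of fat breakdown and of fat synthesis moved in opposite directions. Genes that burn fatty acids and make ketone bodies were lower at P56 (21 of 31, with 2 higher, median -0.70), and genes that make fat from sugar were higher (19 of 24, with 2 lower, median 1.27). The medians ranged from -1.26 to -0.57 and from 0.70 to 2.40 over the alternatives run. Cyp4a14, which hydroxylates the end of fatty acids, had values of 3.61 and 3.92 on the P5 arrays and -0.74, -0.03 and 1.02 on the P56 arrays, a difference of -3.68 ± 0.36 (adjusted p = 9.24e-06). It was saturated on P5 replicate 2, so the size of the fall is uncertain. Its relative Cyp4a10 fell by 1.55. Pdk4, the kinase that holds back glucose oxidation, fell by 2.18, and Bdh1, which interconverts the ketone bodies, fell by 1.65. All P5 arrays lay above all P56 arrays for these genes. Cpt1a, which brings fatty acids into mitochondria, fell by 1.12 and is named after its values were seen. Angptl4, an inhibitor of lipoprotein lipase, and Echs1, an enzyme of beta-oxidation, rose by 0.58 and 0.46, calls that were lost without P5 replicate 2 (Angptl4, adjusted p = 0.0603) or without P5 replicate 3 (Echs1, adjusted p = 0.0716), while Echs1 was also lost without P56 replicate 3 (adjusted p = 0.0596). Lpl, the lipoprotein lipase itself, fell from 1.74 and 1.47 to values between -3.14 and -2.67 (-4.53 ± 0.18, adjusted p = 6.68e-09).

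**Figure D3:**
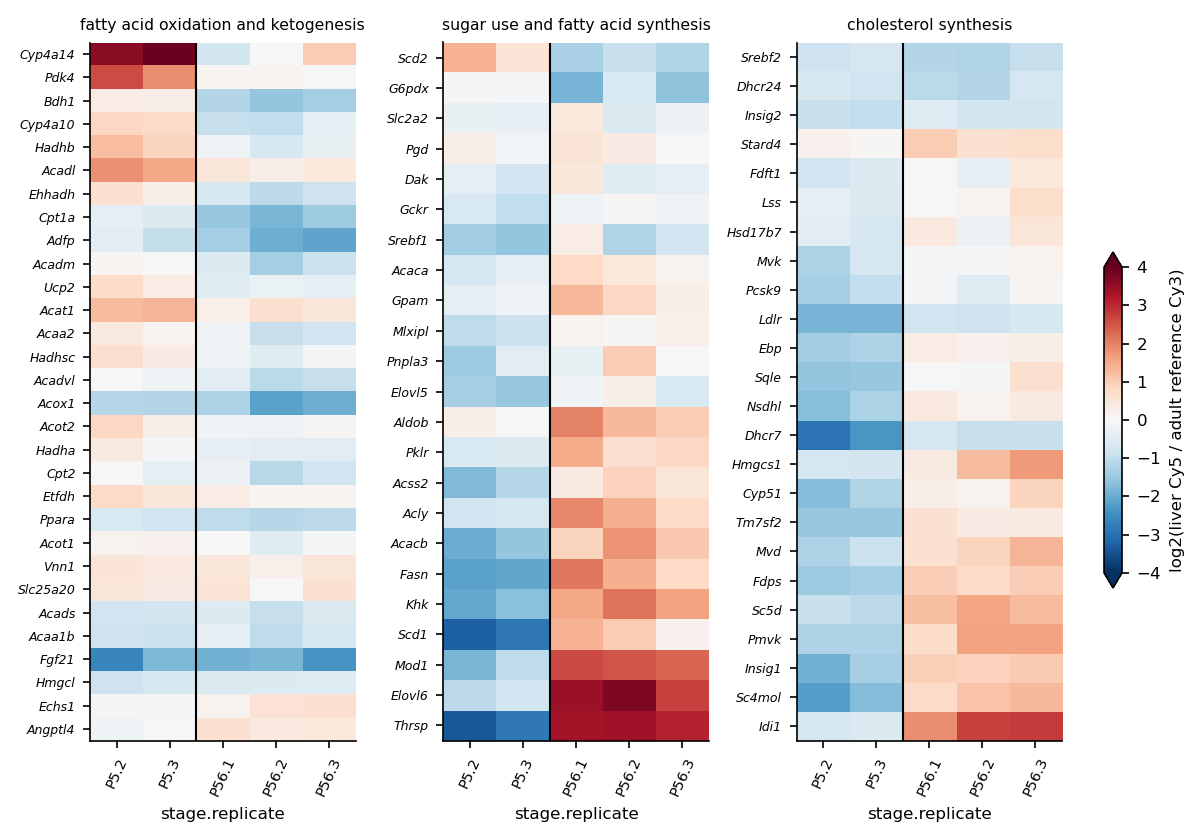
Level of measured members of 3 lists on the 2 P5 and 3 P56 arrays, as log2 of liver over adult reference on a colour scale cut at -4 and 4. Genes are ordered by the difference P56 minus P5, and Cyp4a14 goes from 3.61 and 3.92 at P5 to values between -0.74 and 1.02 at P56, while the colour turns from below to above the reference for Thrsp, Elovl6, Scd1 and Fasn.

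Among lipogenic genes, Thrsp had values of -3.40 and -2.85 on the P5 arrays and 3.32, 3.38 and 3.09 on the P56 arrays. Elovl6, which lengthens palmitate, had -1.04 and -0.77 at P5 and 3.45, 3.73 and 2.74 at P56 (4.21 ± 0.24, adjusted p = 1.08e-07), and Scd1, which puts the double bond into stearate, -3.27 and -2.84 at P5 and 1.39, 1.02 and 0.16 at P56 (3.92 ± 0.27, adjusted p = 5.65e-07). Every P56 array was above the adult reference for these genes and every P5 array below it. Mod1 (malic enzyme 1, a source of NADPH) and Fasn (fatty acid synthase) rose by 3.92 and 3.56. The members that moved the other way were Scd2, the desaturase isoform of fetal and brain tissue (-2.09 ± 0.20), and G6pdx, the entry enzyme of the pentose phosphate path (-1.36 ± 0.27).

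Of 25 genes of cholesterol synthesis, 23 were higher at P56 and 1 lower, with a median of 1.78 and a range of medians from 1.00 to 1.86 over the alternatives. Idi1, which interconverts the activated isoprene units, had values of -0.72 and -0.59 on the P5 arrays and 1.86, 2.75 and 2.80 on the P56 arrays, a difference of 3.12 ± 0.26 (adjusted p = 4.52e-06). P56 replicate 1 was the lowest of the P56 arrays, and the P5 and P56 arrays did not overlap. Sc4mol (now Msmo1), a later enzyme of the path, and Insig1, the sterol sensor that restrains it, rose by 3.03 and 2.60. Srebf2, the transcription factor of the path, was called lower by 0.34, a call lost without P5 replicate 2 (adjusted p = 0.0508) and in 3 of the 4 other fits that left out an array.

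Bile acid synthesis and export rose in 13 of 22 members and fell in 1, with a median of 0.65 (0.08 under median centring). Cyp7a1, the rate-limiting enzyme of bile acid synthesis, had values of -1.73 and -0.83 on the P5 arrays and 2.26, 2.26 and 2.53 on the P56 arrays, a difference of 3.63 ± 0.21 (adjusted p = 1.33e-07). It moved from below to above the adult reference, and the P56 arrays lay closer together than the P5 arrays. Baat, which joins bile acids to taurine, rose by 2.36. Slco1a1, an uptake carrier, and Cyp7b1, an enzyme of the alternative path, rose by 3.59 and 3.16 and were highest on P56 replicate 1, without which they rose by 3.21 and 2.53. Abcb4, which flips phospholipid into bile, fell by 0.92. Without P56 replicate 1 the list held 11 higher and 3 lower genes.

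Most genes of conjugating enzymes rose, and cytochrome P450 genes were called in both directions. Of 38 cytochrome P450 genes of families 1 to 4, 21 were higher and 4 lower (median 0.72, and 0.04 under median centring, where 10 were higher and 6 lower), and 14 were higher without P5 replicate 2. Of 37 genes of conjugating enzymes, 31 were higher and 2 lower (median 1.44). Cyp2j5, an epoxygenase, had values of -2.69 and -3.10 on the P5 arrays and 0.06, -0.22 and -0.27 on the P56 arrays (2.75 ± 0.16, adjusted p = 1.15e-07), and Cyp4f14, an omega-hydroxylase of vitamin E and leukotrienes, rose by 2.76. Cyp2a5, a coumarin hydroxylase that is nearly identical to Cyp2a4 and may share its signal, rose by 2.76 and was lowest on P56 replicate 1, without which it rose by 3.23. Ugt2a3, Ugt2b1 and Ugt2b38, which add glucuronic acid, rose by 4.35, 2.74 and 2.60. The sulfotransferase Sult1c2 had values of 1.09 and 0.08 at P5 and -0.73, -0.20 and -0.62 at P56, and Sult1a1 fell by 0.48. Neither was called without P5 replicate 2 (adjusted p = 0.0866 and 0.0994). Cyp2e1, which oxidizes ethanol, was not called, with values of -1.36 and -0.97 at P5 and -0.79, -1.88 and -1.06 at P56 (adjusted p = 0.815).

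In the promoters found for the P450 list, CAAAGT, a core of the HNF4 site, stood in 19 of 37 (51.4%), against 14.4% of all promoters, and GTTAAT, a core of the HNF1 site, in 5 of 37 (13.5% against 7.1%). The bile acid list held CAAAGT in 6 of 20 and GTTAAT in 2 of 20. The plasma protein list, most of which fell, held each in 7 of 23 (30.4%) of its promoters. Many P450 genes are close copies whose promoters share sequence. The promoter of Cyp2a5 is shown with both motifs in capitals.
Cyp2a5, chr7:26835089-26835388, plus strand: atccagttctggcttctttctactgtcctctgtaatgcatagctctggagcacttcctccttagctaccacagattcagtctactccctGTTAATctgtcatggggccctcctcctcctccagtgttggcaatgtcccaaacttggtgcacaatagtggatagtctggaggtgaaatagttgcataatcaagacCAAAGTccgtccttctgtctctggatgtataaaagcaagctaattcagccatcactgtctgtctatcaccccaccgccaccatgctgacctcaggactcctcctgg

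**Figure D4:**
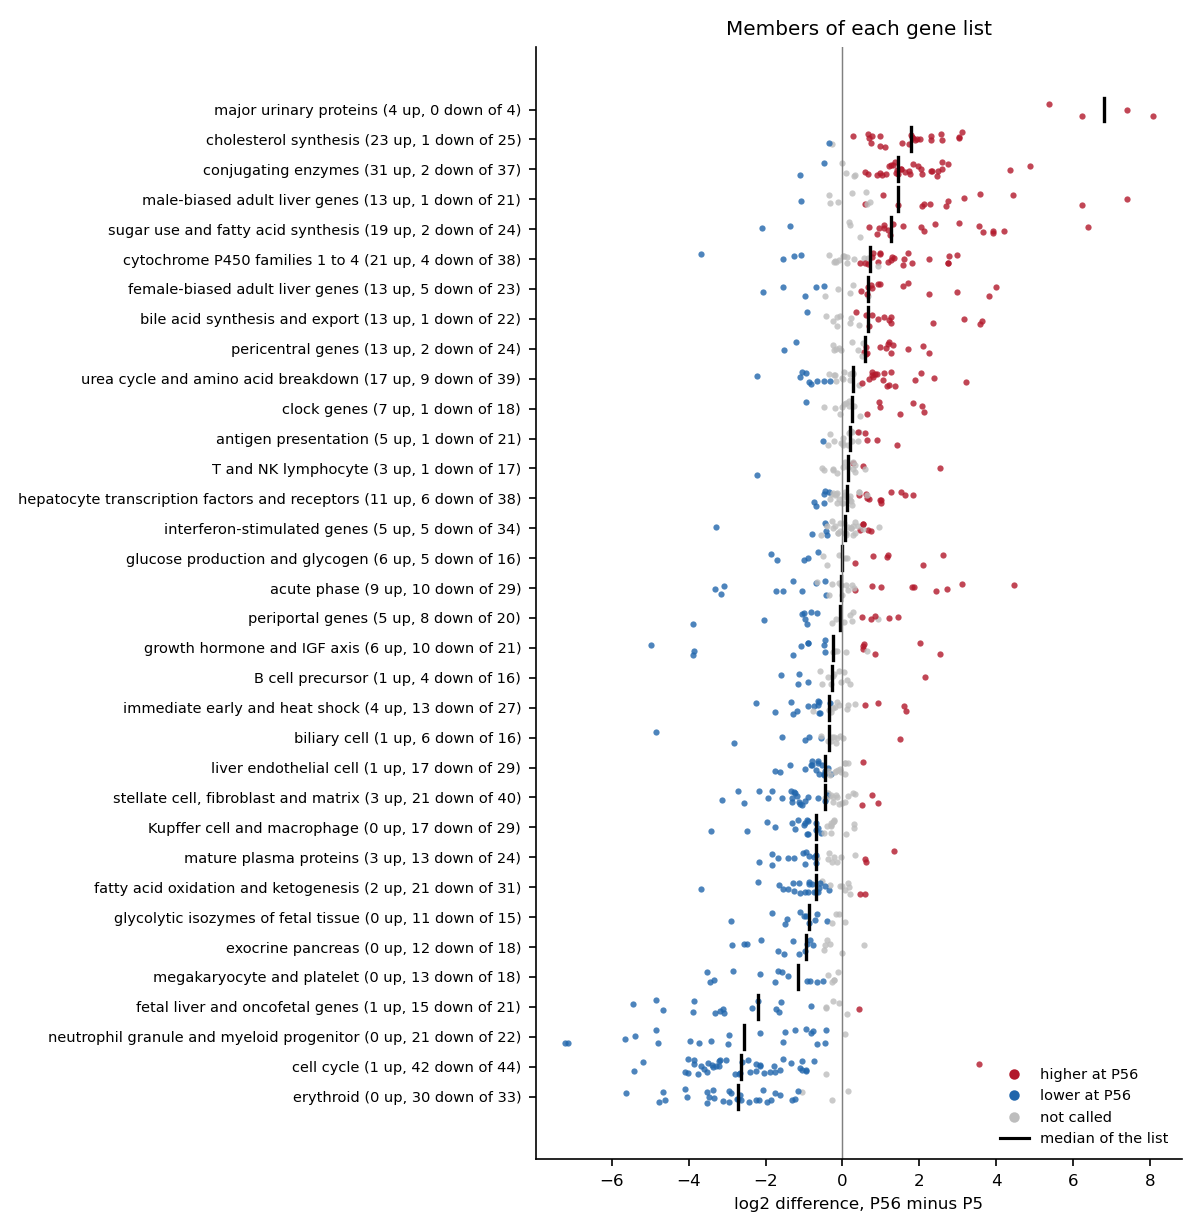
Difference P56 minus P5 on the log2 scale for each measured member (points) of the gene lists, ordered by the median of the list (black bar), with red for higher, blue for lower and grey for genes not called. Counts of members higher and lower stand beside each name; the ends are the major urinary proteins (6.82) and the erythroid genes (-2.71).

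Most glycolytic isozymes of fetal tissue fell, while genes of glucose production were split. Of 15 such isozymes measured, 11 fell and none rose, with a median of -0.87 that was -0.48 without P5 replicate 2. Aldoa, the aldolase of muscle, fell by 1.50, Pkm2, the pyruvate kinase of dividing cells, by 1.44, and Slc2a1, the glucose carrier of fetal tissue, by 1.11. Hk1, the hexokinase of most other tissues, fell by 2.89 on its brightest probe, while its next brightest probe gave 0.030, so its direction rests on the probe. Of 16 genes of glucose production and glycogen, 6 rose and 5 fell (2 and 8 under median centring). Gpt2, an alanine transaminase, had values of -2.67 and -2.39 at P5 and 0.15, -0.09 and 0.21 at P56 (2.62 ± 0.14, adjusted p = 7.14e-08), and Pck2, the mitochondrial carboxykinase, and Ppargc1a, a coactivator of fasting genes, fell by 1.86 and by 1.71.

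Amino acid breakdown went both ways, with 17 of 39 genes higher and 9 lower (5 without P5 replicate 2). The median was 0.27, and -0.35 under median centring, where the sign turned. Prodh, which starts proline breakdown, rose from -3.52 and -2.58 to 0.41, -0.01 and 0.11 (3.22 ± 0.23, adjusted p = 7.06e-07). Tdo2, which opens tryptophan, and Gnmt, which uses up the methyl donor S-adenosylmethionine, rose by 2.39 and 2.05, while Mat1a, which makes that donor, fell from 0.62 and 0.23 to -0.44, -1.18 and -0.41 (adjusted p = 0.00119). Agxt, which detoxifies glyoxylate, fell by 2.23.

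Genes that mark the zones of the liver lobule were called in both directions. Of 24 pericentral genes, 13 were higher and 2 lower (median 0.59, 0.38 without P5 replicate 2, and -0.26 under median centring, a turn of sign). Of 20 periportal genes, 5 were higher and 8 lower (median -0.06, and -0.86 under median centring, where none was higher and 11 were lower). The difference between the zones was not tested. Slc1a2, a glutamate carrier, rose by 2.24 among pericentral genes, and Slc13a3 and Slc1a4 fell, the latter by at least 3.60-fold. Glul, the glutamine synthetase of the innermost pericentral cells, had values of -0.40 and -0.41 at P5 and 0.12, -0.46 and -0.10 at P56 and was not called (adjusted p = 0.201), but was called without P56 replicate 2 (0.42, adjusted p = 0.0283). Among periportal genes, Igfbp2 fell from 2.80 and 3.01 to values between -1.17 and -0.79, and Cdh1, the epithelial cadherin, fell by 2.04, while Pigr, the carrier of IgA into bile, and Sds, the serine dehydratase, rose by 1.44 and 1.21. Neither Pigr nor Sds was called under median centring (0.66 and 0.48, adjusted p = 0.0790 and 0.170).

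The growth hormone and IGF axis held both large rises and large falls. Igf1, the growth factor that the adult liver releases under growth hormone, had values of -2.24 and -2.65 on the P5 arrays and 0.02, 0.03 and 0.22 on the P56 arrays, a difference of 2.54 ± 0.14 (adjusted p = 1.11e-07), and Ghr, the growth hormone receptor, -1.41 and -1.76 at P5 and 0.41, 0.43 and 0.43 at P56 (2.01 ± 0.11, adjusted p = 8.09e-08). Both were below the adult reference on the P5 arrays and at or above it on every P56 array. Igfbp1, a binding protein that rises in fasting, was saturated on both P5 arrays, with values of 4.47 and 4.94 at P5 and 1.28, -1.09 and -1.01 at P56. It fell by at least 8.28-fold in the Cy5 channel, and P56 replicate 1 was the highest P56 array. In the list of 21 measured, 6 rose and 10 fell.

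Many genes known to differ between the sexes in adult liver were higher at P56, and they spread among the P56 arrays. Of 21 male-biased genes, 13 were higher and 1 lower (median 1.44, and 0.71 without P56 replicate 1). Of 23 female-biased genes, 13 were higher and 5 lower (median 0.66, and -0.12 under median centring, where 6 were higher and 9 lower). Of the latter, 6 were higher and 1 lower without P5 replicate 2, and 16 higher and 4 lower without P56 replicate 1. The median male-biased gene stood at 0.80 on P56 replicate 1 and at -0.40 and -0.15 on replicates 2 and 3, while the median female-biased gene stood at -0.83, -0.04 and 0.08. Cyp7b1 had values of -3.07 and -2.31 on the P5 arrays and 1.72, -0.40 and 0.08 on the P56 arrays. Cyp3a41 (now Cyp3a41a), Cyp3a44 and Cyp3a16, close copies that may share signal, rose by 2.24, 1.71 and 1.59 and were lowest on P56 replicate 1, without which they rose by 2.64, 2.03 and 1.96. Named after their values were seen, Sult3a1, a sulfotransferase, had -3.35 and -1.68 at P5 and -2.34, 2.84 and 3.39 at P56, and Hsd3b5, a steroid reductase of male liver, -1.87 and -1.02 at P5 and 2.53, 0.36 and 0.83 at P56. On P56 replicate 1 Sult3a1 lay within the range of the P5 arrays, and Hsd3b5 was highest there.

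**Figure D5:**
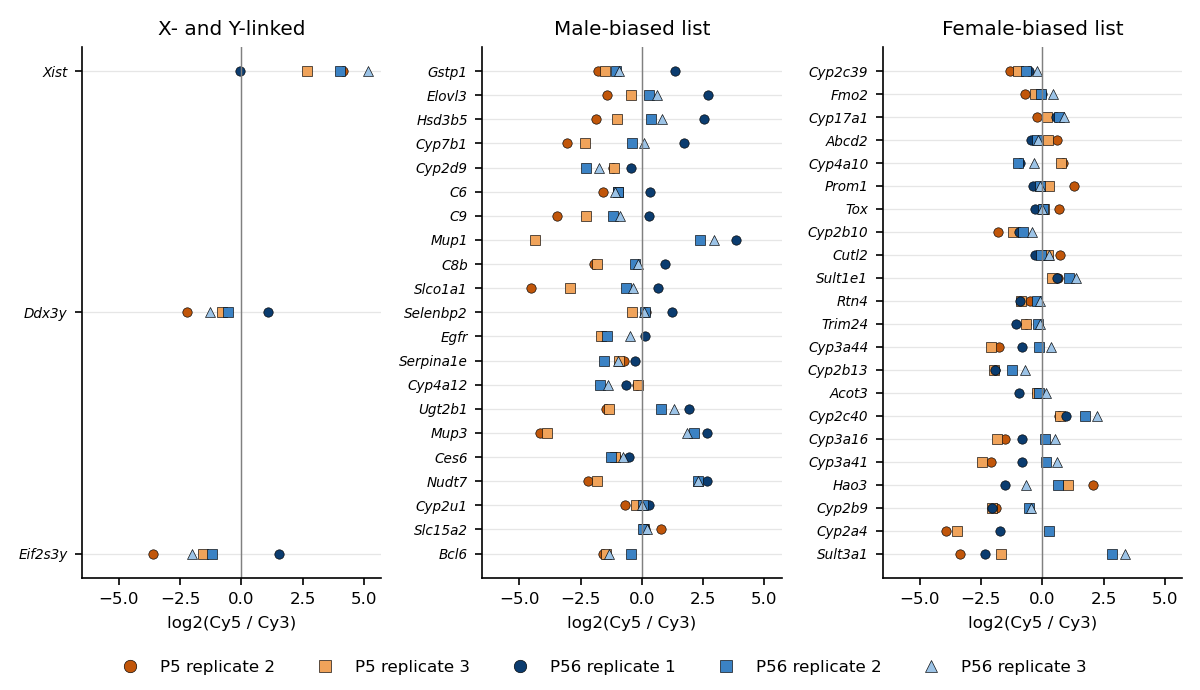
Level of Xist and of 2 Y-linked genes (left) and of members of the male-biased (middle) and female-biased (right) lists on each array, as log2 of liver over adult reference. Genes of the lists are ordered by P56 replicate 1 minus the mean of the other P56 arrays; Xist stood at -0.06 on that array and at 2.67 to 5.18 on the other 4.

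Hepatic cells other than hepatocytes were represented on all arrays, which bears on the label hepatocytes. All 29 Kupffer cell and macrophage genes measured were well above background on both P5 arrays and 25 on all P56 arrays, and 17 fell while none rose (median -0.69). Marco, a scavenger receptor, had values of -0.15 and -0.71 on the P5 arrays and -4.13, -3.66 and -3.78 on the P56 arrays (-3.43 ± 0.21, adjusted p = 1.74e-07), and Hmox1, which breaks down haem, and Spic, the factor of iron-recycling macrophages, fell by 2.48 and by 1.97. Of 29 endothelial genes, 17 fell (9 without P5 replicate 2) and 1 rose. Xlkd1 (now Lyve1), a hyaluronan receptor of sinusoids, fell by 1.75 and Flt1, a VEGF receptor, by 1.61. Of 40 genes of stellate cells, fibroblasts and matrix, 21 fell and 3 rose (1 without P5 replicate 2). Nid1, of basement membranes, fell by 3.14, Col1a1, a chain of type I collagen, by 2.71 and Vim by 2.57, while Lrat, which makes the retinyl esters that stellate cells store, rose (0.93 ± 0.16, adjusted p = 4.81e-04). Lrat was not called under median centring (0.13, adjusted p = 0.551). Of 16 biliary genes, 6 fell and 1 rose. Cd24a, also carried by blood precursors and progenitors, went from 4.00 and 4.00 to values between -1.12 and -0.60.

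Transcripts of the exocrine pancreas, which lies beside the liver, were higher at P5, with 12 of 18 lower at P56. P5 replicate 2 stood above the others: Reg1, a secreted lectin of acinar cells, had values of 0.57 and -1.37 on the P5 arrays and -3.65, -2.62 and -3.50 on the P56 arrays, and Cpb1, a carboxypeptidase, 0.08 and -2.24 at P5 and -4.16, -3.19 and -3.59 at P56. Over the list the median level was -0.48 and -1.42 on the P5 arrays and -2.47, -2.00 and -2.23 on the P56 arrays, and 6 of the 18 were lower without P5 replicate 2. The differences of Reg1 and Cpb1 were -2.86 and -2.56 with that array and -1.89 and -1.40 without it. The part of pancreas tissue in other differences was not tested.

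Acute phase genes moved in both directions, 9 higher and 10 lower of 29. Hamp2, a gene of the hepcidin family, had values of -2.45 and -1.51 on the P5 arrays and 0.82, 3.76 and 2.89 on the P56 arrays (4.47 ± 0.61, adjusted p = 1.13e-04), and Hamp1 (now Hamp), the iron regulator hepcidin itself, rose by 3.11. Both were lowest among the P56 arrays on replicate 1, without which they rose by 5.31 and 3.55. Their probes may share signal, as the genes are close copies. Mt2, a metallothionein, and Itih3, a hyaluronan-binding protein, fell by 3.31 and by 3.16, sizes that are uncertain because both were saturated on 1 of the 2 P5 arrays. Of 34 interferon-stimulated genes, 5 rose and 5 fell (2 and 3 without P5 replicate 2, none and 21 under median centring), and Rsad2, the antiviral viperin, fell from 2.75 and 1.96 to values between -1.09 and -0.82 (-3.29 ± 0.25, adjusted p = 1.12e-06). Of 21 genes of antigen presentation, 5 were higher (23.8%, near the 20.9% of all genes) and 1 lower (4.76%, beside 24.7%). The median was 0.21, or 0.0045 without P5 replicate 2 and -0.47 under median centring. H2-T10 and H2-K1, class I genes that resemble their neighbours and may share signal, rose by 1.42 and 0.90, but the Cy3 signal of H2-K1 was at the limit of the scanner on every array (64795 to 65490), so the size of its rise is uncertain, and it was not called under median centring (adjusted p = 0.0532). Of 27 immediate early and heat shock genes, 13 fell and 4 rose. Egr1 and Btg2, which respond within minutes to stimuli, fell by 2.25 and by 1.75, and Ctgf and Gadd45g rose by 1.66 and 1.61.

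Regulators of the hepatocyte were called about as often as all genes. Of 38 transcription factors and receptors measured, 11 were higher (28.9%) and 6 lower (15.8%, and 2 genes without P5 replicate 2), beside 20.9% and 24.7% of all genes. The median was 0.11, and -0.68 under median centring, where 3 were higher and 23 lower. Nr1h4, the bile acid receptor FXR, had values of -1.18 and -1.05 at P5 and 0.22, 0.01 and 0.19 at P56 (1.25 ± 0.13, adjusted p = 1.36e-05), and Cebpb and Rxrg rose by 1.52 and 1.63. Nr1h4 was not called under median centring (0.51, adjusted p = 0.0717). Rxra, the receptor on which the study centres, had -1.07 and -1.21 at P5 and -1.12, -1.23 and -1.35 at P56 and was not called (adjusted p = 0.573). Under median centring, where the median over all genes was -0.47, Rxra was called lower (-0.60, adjusted p = 0.0287). Of 18 clock genes, 7 were higher and 1 lower, with a median of 0.24 that was -0.24 under median centring, where 4 were higher and 6 lower. Nr1d2 and Dbp, targets of the CLOCK protein, rose by 2.13 and 1.50, while Arntl, which pairs with CLOCK, fell by 0.93, or by 0.54 without P5 replicate 2. Arntl was well above background on only 1 of the 3 P56 arrays, so the size of its fall is uncertain. The hour at which livers were taken is not given in the sources used here, so age and hour cannot be told apart.

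The study's lists of RXR-alpha and Wnt pathway genes had members called in both directions. Of 79 RXR-alpha genes measured, 29 were higher and 26 lower, with a median of 0.04, and of 57 Wnt genes, 12 were higher and 13 lower, with a median of 0.01. Of the Wnt genes 21.1% were higher and 22.8% lower, near the 20.9% and 24.7% of all genes, and of the RXR-alpha genes 36.7% and 32.9%. Under median centring the medians were -0.68 and -0.69, where all genes had -0.47, with 13 RXR-alpha genes higher and 43 lower, and no Wnt gene higher and 38 lower. Within the RXR-alpha list, Aldh1a1, a retinal dehydrogenase, rose from -5.36 and -4.90 to -0.82, -1.50 and -0.96 (4.04 ± 0.22, adjusted p = 9.49e-08), Cyp7a1 and Fasn rose as given above, and Lpl fell. In the Wnt list no called gene moved by more than 1.13, and Ubb, a ubiquitin gene, and Ppp2r1b, a phosphatase subunit, fell by 1.13 and by 0.95.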

How the data were processed

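Total RNA of whole livers was amplified and hybridized in Cy5 against a commercial adult liver reference in Cy3 on 2-colour Agilent arrays. Spot intensity in the Cy5 and Cy3 channels was deposited as written by Feature Extraction 9.5.1.1 (per the file headers), before any step that brings arrays onto a common scale. A deposited table of log2 ratios, which the authors normalized by lowess, served as an alternative only. Groups follow the titles. The labels call the arrays biological replicates. The p-values rest on a spread pooled over all 11 arrays, E14 and E18 included, and not on the P5 and P56 arrays alone. Array weights, lower for noisier arrays, were 0.44 on each P5 array and 0.38, 0.52 and 3.27 on P56 replicates 1, 2 and 3. They were 1.31 to 1.45 at E14 and 0.75 to 2.32 at E18. The pooled spread can thus understate that of the noisier arrays. A fit of the P5 and P56 arrays alone called 4998 genes. The number of arrays limits the precision.

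The mean signal of a spot was corrected for its local background with normexp (offset 50), log ratios were normalized by loess within arrays, control spots had weight 0, outlier spots (209 to 239 of 43379 per array) were left out, and repeated spots were averaged. Probes entered if Cy5 was well above background on each array of some stage and no stage lacked more than 1 value. Each gene was read by its brightest probe. Of the genes tested, 66 lacked a value on a P5 or P56 array, and these were fitted without it. Means of the 4 stages were fitted to all 11 arrays with lmFit and eBayes (limma 3.58.1, R 4.3.3), with Benjamini-Hochberg adjustment at 0.05. Figures were drawn with matplotlib 3.10.9.

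Symbols are those of the array design. A RefSeq symbol was found for 11726 genes and differed for 2655, and coordinates of probes are on mm7. Promoters are from the RefSeq table of GRCm38.p6. The members and the 37 gene lists were chosen with earlier results of these data known. Genes named are the 12 largest rises and falls, up to 4 called genes of largest change per list with up to 2 that moved against the list, and a few always named. Some of these are not reported here by name or in figures, though list counts include them. For a probe below background or saturated on every array of a group, a bound was taken from the Cy5 channel after Aquantile normalization. The Cy3 channel was compared between stages as net signal, floored at 1, on a log2 scale after quantile normalization. Alternatives covered background correction, normalization, filters, probes, arrays in the fit, scan, replicate numbers, and the methods' t-test. On data simulated for this comparison with 200 of 16433 genes changed, the fit recovered 0% of changes of 0.5 log2, 88.5% of 1 and 99% of 2. False calls numbered 0, 14 and 9. Far fewer genes changed there than the 45.6% called here, which makes the adjusted threshold stricter. The recovered shares are therefore no measure of how well this comparison finds small changes.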

Additional observations from a re-analysis of the deposited data

How the results depend on the processing

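Of 7614 genes called, 3483 higher and 4131 lower, the counts moved by over 1.5 times under these settings. Median centring in place of loess gave 651 higher and 8863 lower genes. The P5 and P56 arrays alone gave 4998 calls (2142 higher). The scan as a fixed block gave 4663 (2011 higher, 2652 lower), and the scan shared by P5 replicate 3 and the P56 arrays gave 4741 (2071 and 2670) with 1 P5 array, assumed to vary like the other stages. A change of at least 1 log2 was met by 2269 (957 and 1312). The methods' t-test called 5569 genes unadjusted and 296 after Benjamini-Hochberg adjustment (104 and 192). Leaving out an array gave 4743 to 8212 calls, 2072 to 3788 higher and 2671 to 4424 lower, with the lowest counts without P5 replicate 2. The other settings gave 6270 to 9112 calls. The causes were not tested.

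Deviations from the stage means of same-numbered arrays correlated at -0.203 and 0.0505 across genes, and those of differently numbered arrays at -0.0505 and 0.203. The deviations of the 2 P5 arrays mirror each other, so these values cannot show whether the replicate numbers pair the samples. A fit with the replicate number as a block called 6854 genes (3055 higher, 3799 lower). Under median centring the log2 difference turned to -0.33 for Cd3e, -0.16 for Clec4g, -0.13 for Echs1, -0.17 for H2-Eb1, -0.22 for Ifi35, -0.15 for Ifih1, -0.13 for Rgs5 and -0.46 for Sall4. It was 0.01 for Angptl4, which was no longer called (adjusted p = 0.976). In the authors' table it was 0.18 for Cyp4a12 and -0.14 for Sall4, and with only probes measured on every array 0.030 for Hk1 and -0.30 for Sall4. Leaving out an array took the call from named genes 25 times and gave it once, to Glul without P56 replicate 2. Dim Cy5 signal at P56 limits the size of falls: 507 lower genes were above background on no P56 array.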
